A study of Homo sapiens with 6 samples.

Results

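Histone messenger RNAs were followed through 6 libraries of SK-Hep1 cells, a human line labelled as hepatocellular carcinoma. They were taken as every gene whose symbol begins with HIST and a digit, H2AF, H1F or H3F3, and the rule found 59 of the 11593 gene symbols, carried by 84 of the 28768 transcript rows. Of the 59, 48 were HIST genes, named for 4 chromosomal clusters: 33 in HIST1, 12 in HIST2, 2 in HIST3 and 1 in HIST4. The other 11 were replacement and other variant genes: 6 H2AF, 2 H1F and 3 H3F3. The series used ChIRP, in which biotinylated antisense probes retrieve an RNA with what is crosslinked to it, to find messenger RNAs bound to SNHG10, a long noncoding RNA. Of the 6 libraries, 3 were labelled with the complete SNHG10 probe set and 3 with probes to LacZ, a bacterial gene with no human counterpart. All 6 came from the same cell line, and no other treatment, genotype or time was labelled. Whether a replicate was a culture of its own is not labelled, so every p-value here reflects library-to-library spread alone, and that spread may be technical. The design text speaks of sequencing retrieved RNA, but the labelled protocol gives only total RNA from Trizol; which fraction the values describe is not settled.

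Replication-dependent histone mRNAs supply the H1, H2A, H2B, H3 and H4 proteins that package new DNA in S phase. They lack a poly(A) tail: their 3′ end is a stem-loop bound by SLBP and cut with the help of the U7 small nuclear ribonucleoprotein, in nuclear bodies next to the gene clusters where NPAT drives transcription. Replacement histones such as H3.3 and H2A.Z are made from single genes outside the clusters, with introns and poly(A) tails, and are deposited in and out of S phase.

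Some histone promoters are identical between duplicated genes, and the classes carry different motifs. RefSeq windows of GRCh38.p14, from 250 bases before to 50 after the gene start, were matched to 51 of the 59 genes. H1F0, H3F3C, HIST1H2AH, HIST1H2BF, HIST1H2BG, HIST1H3J, HIST1H4A and HIST1H4C had no match. The windows of HIST2H4A and HIST2H4B were identical at 300 of 300 bases. Those of HIST2H2AA3 and HIST2H2AA4 were identical at 299 of 299 aligned bases, and those of HIST2H3A and HIST2H3C at 296 of 296. HIST2H3D, by contrast, shared 36.4% of bases with HIST2H3C, and HIST4H4 shared 30.1% with HIST2H4A. The 120 bases before the start are printed 5′ to 3′ for the duplicated H4 genes, for 3 other HIST2 genes (an H3, an H2A and an H2B gene) whose libraries did not overlap between probe sets, and for H3F3B, an H3.3 gene, as a variant. Capitals mark TATAAA, the TATA box; the CCAAT box; the octamer core of H2B promoters, TTTGCAT; and part of an H4 promoter element, GGTCCG; each on either strand.
HIST2H4A (chr1:149832537-149832656, plus strand): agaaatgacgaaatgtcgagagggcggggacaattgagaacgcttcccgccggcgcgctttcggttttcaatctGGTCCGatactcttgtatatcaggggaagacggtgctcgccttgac
HIST2H4B (chr1:149861160-149861279, minus strand): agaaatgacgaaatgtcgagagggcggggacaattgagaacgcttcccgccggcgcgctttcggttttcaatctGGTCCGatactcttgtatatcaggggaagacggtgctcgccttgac
HIST2H3C (chr1:149841209-149841328, minus strand): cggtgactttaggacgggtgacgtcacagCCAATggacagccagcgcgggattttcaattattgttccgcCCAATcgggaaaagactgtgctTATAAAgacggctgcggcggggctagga
HIST2H2AB (chr1:149887966-149888085, minus strand): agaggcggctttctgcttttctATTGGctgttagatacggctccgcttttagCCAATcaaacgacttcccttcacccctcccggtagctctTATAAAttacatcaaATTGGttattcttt
HIST2H2BF (chr1:149812371-149812490, minus strand): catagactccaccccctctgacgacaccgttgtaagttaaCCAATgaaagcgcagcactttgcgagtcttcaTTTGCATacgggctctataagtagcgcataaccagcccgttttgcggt
H3F3B (chr17:75779780-75779899, minus strand): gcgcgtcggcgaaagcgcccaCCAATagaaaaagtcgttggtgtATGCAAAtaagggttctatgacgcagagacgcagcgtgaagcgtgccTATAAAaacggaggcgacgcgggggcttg

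In the whole windows, with both strands searched and no motif held within another, TATAAA was found in 29 of 42 HIST genes (69%) against 12% of 27305 first windows of all genes. CCAAT was found in 35 of 42 (83.3%) against 35.7%. All 35 were H1, H2A, H2B or H3 genes, and none of the 7 H4 windows held it. GGTCCG was in 7 of 7 H4 windows against 11.2% of all genes. The octamer core TTTGCAT was in 9 of 12 H2A windows, 7 of 10 H2B windows and 1 of 10 H3 windows, against 4.51%. AAACACA, the H1 box, was in 3 of 3 H1 windows against 5.76%. Among 9 variant genes with a window, 4 held TATAAA, 6 held CCAAT and 1, H3F3B, held the octamer core. The windows are not all separate sequences. Pairs of H2A and H2B genes on opposite strands shared 253 to 271 bases of their windows, so 1 motif can count in both classes. HIST1H3D and HIST1H2AD, an H3 and an H2A gene on the same strand, shared all 300. Identical windows of duplicated genes were counted once for each copy. A match is a description of these letters only.

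The FPKM totals of the libraries ran from 268794 to 277118, and no 2 libraries held identical values. FPKM is a fragment count scaled by the length of the transcript model and by the library, so it allows genes to be compared per length, but the depth behind it is unknown here. Of 10 hepatocyte markers, CPS1 and SERPINA1 had values and together summed to between 1.04 and 2.12 FPKM. The other 8, ALB among them, were not among the gene symbols listed. Endothelial markers came to ROBO4 and ENG of 7, mesenchymal markers to 5 of 5 with VIM between 833 and 1522 FPKM, epithelial markers to KRT8 and KRT18 of 4, and leukocyte markers to CD68 and CD14 of 3. The summed levels of all 5 marker lists overlapped between the probe sets, and no marker was called. Single markers did not all overlap: KRT8 had 549, 544 and 465 against 601, 589 and 633 FPKM and CPS1 0.505 to 0.796 against 0.883 to 1.53 FPKM, in both every SNHG10 library below. TAGLN, at 9.55, 1.93 and 20.99 against 1.72, 1.38 and 1.99 FPKM, overlapped with a log2 difference of 1.71. The part of these markers in the histone values was not tested.

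Here and after, a row of 6 values gives SNHG10 libraries 1, 2 and 3 against LacZ libraries 1, 2 and 3. Cluster histone mRNAs were among the most abundant messages in every library. Of the 100 most abundant genes, 23 were HIST genes, and 38 HIST genes stood among the first 500, each with a mean of at least 100 FPKM. H1 message came almost wholly from 2 linker histone genes. HIST1H1E had 1239.9, 1043 and 1187 FPKM under SNHG10 probes and 1252, 1279 and 1231 under LacZ probes, and HIST1H1C had 1199, 1060.5 and 1130.3 against 1149, 1117 and 1179.7 FPKM. The highest H2B gene was HIST1H2BK at 1223, 1106 and 1305 against 1227, 1174 and 1057 FPKM, and the highest H3 gene was HIST1H3B at 1184, 1192 and 1276 against 1149, 1101 and 1154 FPKM. HIST1H4C led the H4 genes at 1068, 922 and 1004 against 1083, 839 and 968 FPKM, and HIST1H2AE led the H2A genes at 663, 766 and 779 against 803, 797 and 701 FPKM. These 6 genes ranked between 16 and 34 among all genes by mean. The lowest HIST genes that passed the filter were HIST1H2BN, a mean of 1.63 FPKM, and HIST1H3E, a mean of 8.39 FPKM.

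Levels between these genes rest on unlike transcript models. The 56 HIST rows spanned from 312 to 27137 bases of the genome, introns included, and the transcript length that FPKM was scaled by is not given in the sources used here. An order of levels between HIST genes is therefore approximate, while the same gene is compared between libraries on the same model.

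**Figure D1:**
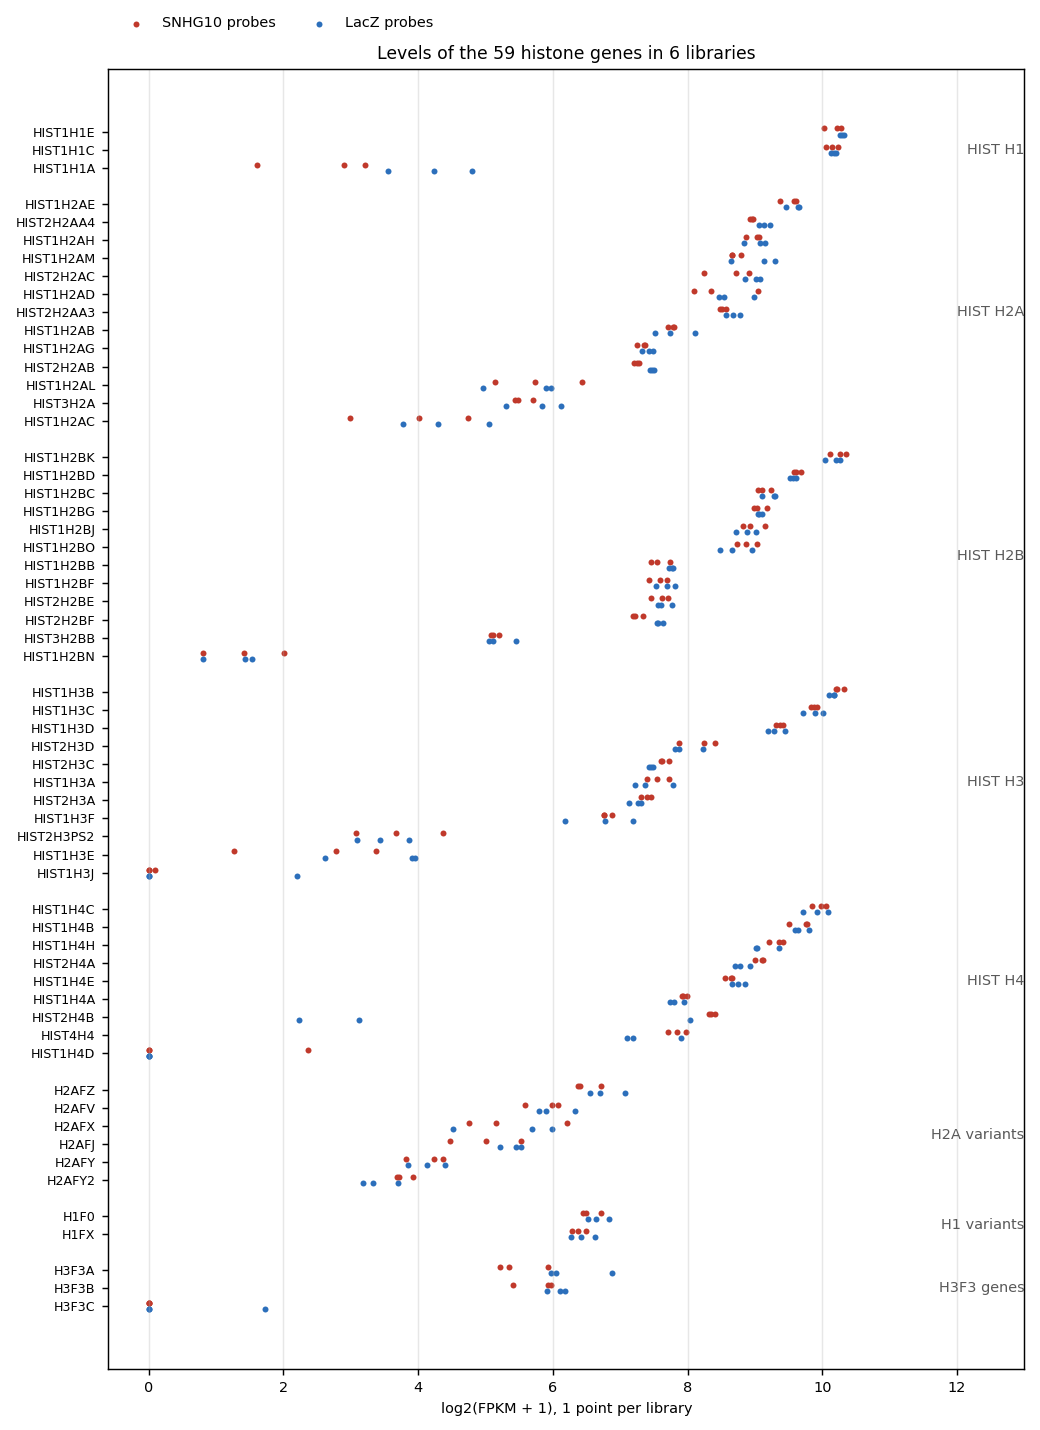
Level of each of the 59 histone genes as log2(FPKM + 1) (x axis), with 3 red points for SNHG10 probes and 3 blue points for LacZ probes, grouped by class and ordered by mean. Most HIST genes have 6 close points to the right of the variants, and HIST2H4B has 2 LacZ libraries far to the left.

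As a share of all FPKM, the 59 genes held 7.42, 7.07 and 7.25 against 7.35, 7.13 and 6.88% in the SNHG10 and LacZ libraries, in that order. The HIST genes held 7.24, 6.86 and 7.06 against 7.13, 6.92 and 6.62%, a mean of 7.05% ± 0.189 against 6.89% ± 0.254 (SD, n = 3 each), and the probe sets overlapped. Variant genes held 0.197% ± 0.0144 against 0.227% ± 0.0297 (SD, n = 3 each), also overlapping. The ratio of HIST to variant message was 39.4, 32.4 and 36.4 against 32.1, 34.5 and 25.5, and these ratios overlapped too. In such bulk libraries, the share of cells in S phase and the histone mRNA per cell cannot be told apart, and neither was measured.

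By class the picture was uneven. Summed H3 message was 3784, 3793 and 3804 against 3725, 3572 and 3469 FPKM, and summed H4 message was 4398, 4154 and 4042 against 4036, 3668 and 3445 FPKM: in both classes every SNHG10 library lay above every LacZ library, for H4 by a margin as thin as 4042 to 4036 FPKM. Without the duplicated HIST2H4A and HIST2H4B the H4 sums overlapped, at 3508, 3317 and 3175 against 3549, 2969.6 and 3022 FPKM. Summed H2A message was 3923, 3752 and 4149 against 4429.6, 4634 and 4129 FPKM, which overlapped, although as a share of the library total it did not, at 1.459, 1.396 and 1.520 against 1.613, 1.672 and 1.522%, a margin as thin as 1.520% to 1.522%. H2B sums, at 4915, 4636 and 4940.0 against 4962, 4894 and 4494 FPKM, and H1 sums, at 2440.5, 2109.9 and 2326 against 2411, 2422 and 2429 FPKM, overlapped. H3F3 sums lay lower with SNHG10 probes, at 102, 102 and 96.2 against 137, 121 and 187 FPKM, without overlap. H2AF sums were 225, 293 and 247 against 305, 238 and 318 FPKM and H1F sums 166, 175 and 186 against 167, 196 and 198 FPKM, with overlap in both. These sums are descriptions and were given no test.

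**Figure D2:**
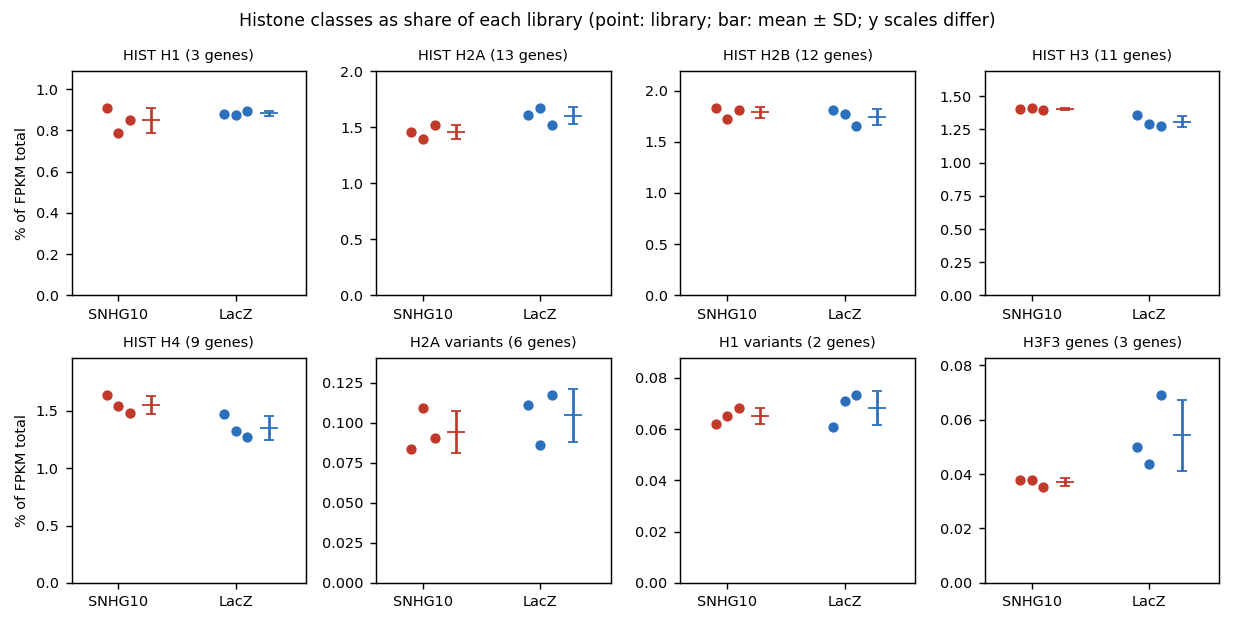
Share of each library's FPKM total (y axis, percent, a separate scale from 0 in each panel) held by each histone class, 1 point per library, with the mean ± SD at the side. The H3 and H4 points of the SNHG10 libraries lie above those of LacZ, the H4 points only with HIST2H4A and HIST2H4B counted, the H3F3 points below and the H2A points below by a thin margin, and the other classes overlap.

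Gene by gene, no histone mRNA passed the test. Of the 59 genes, 56 passed the filter of at least 1 FPKM in at least 3 libraries and were tested among 10304 genes with limma on log2(FPKM + 1). None of the 56 was called at an adjusted p under 0.05, in a comparison that called 0% of all genes in either direction, and the smallest adjusted p among them was 0.885. At an unadjusted p under 0.05 there were 6 of 56 (10.7%), against 5.42% of all genes: 2 above 0, against 2.1%, and 4 below, against 3.32%. For 9 of 56 the libraries of the probe sets did not overlap (16.1%), against 11.4% of all genes. In 4 of them the SNHG10 libraries were above, against 4.22%, and in 5 below, against 7.21%. Abundant genes vary less, and among those with a mean of at least 100 FPKM the counts were 7 of 38 HIST genes (18.4%) against 15.1% of all 364. Differences are SNHG10 minus LacZ on the log2(FPKM + 1) scale, ± SE. A difference above 0 was found for 24 of 56, against 43.3% of all genes. The median log2 difference was -0.034 for the histone genes and -0.054 for all genes tested. With median-ratio scaling 31 of 56 lay above 0, and the medians were 0.025 and -0.0023. Among all genes tested under both scalings, 5112 then lay above 0 and 5165 below.

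Of the 3 genes under the filter, HIST1H3J, an H3 gene, was listed at 0, 0.0717 and 0 against 0, 3.59 and 0 FPKM. HIST1H4D, an H4 gene, was listed at 0, 0 and 4.13 against 0, 0 and 0 FPKM. H3F3C, an intronless relative of the H3.3 genes, was listed at 0, 0 and 0 against 0, 0 and 2.32 FPKM. Each was above 1 FPKM in a single library, which allows no comparison.

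**Figure D3:**
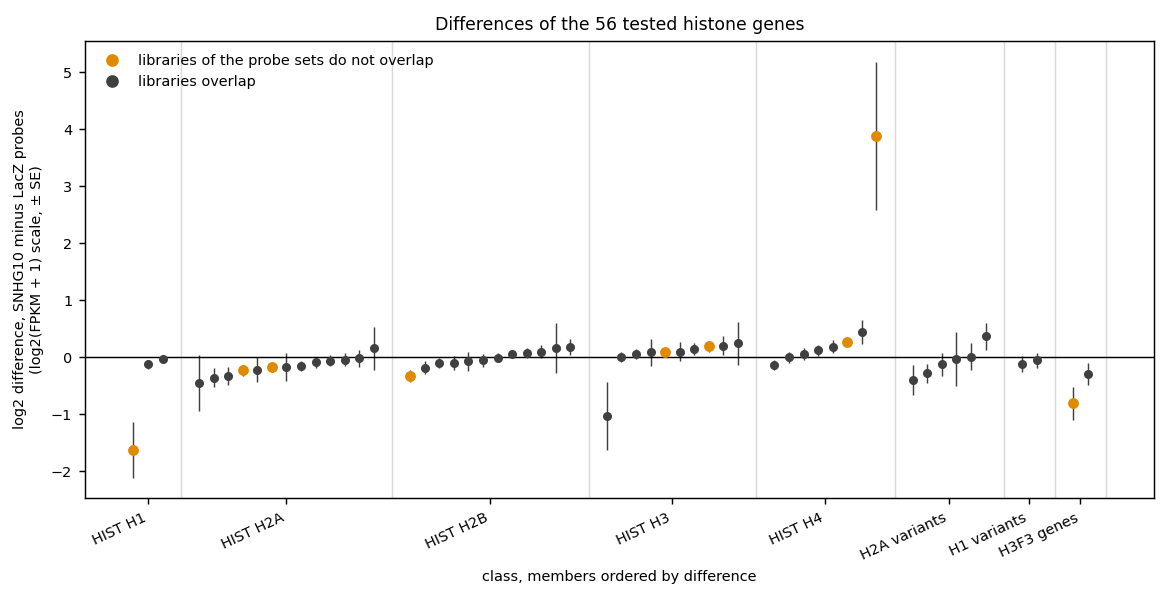
Difference between probe sets of the 56 tested histone genes (y axis, SNHG10 minus LacZ on the log2(FPKM + 1) scale, ± SE), grouped by class on the x axis, with the 9 genes whose libraries did not overlap in orange. HIST2H4B stands alone at 3.89, most HIST genes lie within 0.2 of 0, and the H2A genes lie mostly below 0 and the H3 and H4 genes mostly above.

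Linker histone H1 was measured through 3 genes, all with differences below 0 and none called. HIST1H1A, the lowest of them, had 2.04, 6.47 and 8.31 FPKM under SNHG10 probes and 10.7, 26.7 and 17.8 under LacZ probes (log2 -1.62 ± 0.49, limma adjusted p = 0.885). Every SNHG10 library was under every LacZ library, at levels far below the other H1 genes. HIST1H1C (log2 -0.025 ± 0.072, limma adjusted p = 0.97) and HIST1H1E (log2 -0.12 ± 0.080, limma adjusted p = 0.928) overlapped between the probe sets.

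Of 13 H2A genes, which encode a core histone that pairs with H2B, 12 had a difference below 0, with a median of -0.17, and none was called. Apart from HIST1H2AE, the highest were HIST2H2AA4 at 487, 503 and 498 against 595, 559 and 532 FPKM and HIST1H2AH at 465, 530.2 and 521 against 540.1, 455 and 567 FPKM. HIST2H2AA4 (log2 -0.18 ± 0.078, limma adjusted p = 0.885) was lower in every SNHG10 library, and HIST1H2AH (log2 -0.039 ± 0.11, limma adjusted p = 0.968) overlapped. HIST2H2AB, an H2A gene of the HIST2 cluster, had 146, 155 and 151 FPKM under SNHG10 probes and 177, 181 and 173 under LacZ probes (log2 -0.23 ± 0.095, limma adjusted p = 0.885). Its probe sets were separate and its spread within a probe set was the smallest of all histone genes, a pooled SD of 0.0371 on the log2 scale. HIST2H2AC, a neighbour in the same cluster, had 481, 301 and 422 against 462, 516 and 538 FPKM (log2 -0.36 ± 0.17, limma adjusted p = 0.885); the first SNHG10 library lay within the LacZ range. The only H2A gene with a difference above 0 was HIST1H2AL, at 85.6, 34.1 and 52.4 against 30.1, 58.6 and 61.9 FPKM, whose model lies within that of HIST1H2BN on the same strand. HIST2H2AA3 is described with its copy, HIST2H2AA4. The other 6, HIST1H2AB, HIST1H2AC, HIST1H2AD, HIST1H2AG, HIST1H2AM and HIST3H2A, had overlapping libraries and log2 differences from -0.45 to -0.020.

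Of 12 H2B genes, 5 had a difference above 0 and 7 below, with a median of -0.026. HIST2H2BF, the H2B gene whose promoter is printed above, had 160.3, 149 and 145 FPKM under SNHG10 probes and 187, 198 and 185 under LacZ probes (log2 -0.33 ± 0.10, limma adjusted p = 0.885). This was the smallest unadjusted p of the class, 0.011 by limma, and the libraries did not overlap. After HIST1H2BK (log2 0.071 ± 0.090, limma adjusted p = 0.937), the highest were HIST1H2BD at 777, 766 and 819.6 against 781, 736 and 758 FPKM and HIST1H2BC at 528, 602 and 547 against 620.4, 628 and 552 FPKM. Both overlapped, with log2 differences of 0.054 and -0.10. The other 8, HIST1H2BB, HIST1H2BF, HIST1H2BG, HIST1H2BJ, HIST1H2BN, HIST1H2BO, HIST2H2BE and HIST3H2BB, overlapped too, with log2 differences from -0.18 to 0.18.

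Of 10 tested H3 genes, 9 had a difference above 0, with a median of 0.10. HIST1H3B, the highest, was above in every SNHG10 library (log2 0.10 ± 0.066, limma adjusted p = 0.928). HIST1H3C had 964, 914 and 941 against 945, 1026 and 838 FPKM and HIST1H3D had 685, 661 and 636 against 696, 583 and 619.7 FPKM, and both overlapped, with log2 differences of 0.0097 and 0.066. HIST2H3C had 211, 193 and 195 FPKM under SNHG10 probes and 177, 175 and 171 under LacZ probes (log2 0.19 ± 0.094, limma adjusted p = 0.885), with separate libraries and the smallest p of the class. The exception below 0 was HIST1H3E, a low H3 gene at 5.85, 9.37 and 1.41 against 14.5, 5.16 and 14.1 FPKM. HIST1H3A, HIST1H3F and HIST2H3PS2 overlapped, with log2 differences from 0.089 to 0.24.

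Of 8 tested H4 genes, 7 had a difference above 0, with a median of 0.16. HIST1H4C (log2 0.056 ± 0.11, limma adjusted p = 0.958), HIST1H4B at 866, 874 and 727 against 889, 793 and 776 FPKM and HIST1H4H at 686, 652 and 589 against 653, 519 and 524 FPKM were the highest, and all 3 overlapped. HIST4H4, the lone gene of its cluster, had 229, 250.004 and 209 against 239, 145 and 136 FPKM (log2 0.45 ± 0.21, limma adjusted p = 0.885); the first LacZ library lay among the SNHG10 values. HIST1H4E, at 405, 377 and 399 against 463, 429.6 and 405 FPKM, was the gene below 0, and HIST1H4A overlapped at a log2 difference of 0.12.

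The largest difference of any histone gene was in HIST2H4B, which was read at 337, 324 and 318 FPKM under SNHG10 probes and 3.72, 260.3 and 7.74 under LacZ probes, or a mean of 326 ± 9.49 against 90.6 ± 147 FPKM (SD, n = 3 each). All 3 SNHG10 libraries lay close together, whereas LacZ libraries 1 and 3 were near 0 and LacZ library 2 was not. The log2 difference was 3.89 ± 1.30, with a limma adjusted p of 0.885. Without LacZ library 2 it was 5.67 with an adjusted p of 0.0016, the only setting of those run in which a histone gene was called. The adjusted p ran from 0.0016 to 0.925 over the settings. Its twin HIST2H4A had 553, 514 and 549 FPKM under SNHG10 probes and 483, 438 and 416 under LacZ probes (log2 0.28 ± 0.088, limma adjusted p = 0.885), with separate libraries. Among the LacZ libraries HIST2H4A was highest in library 1 and lowest in library 3, the same libraries where HIST2H4B was near 0. In hg19 HIST2H4A lies at chr1:149804223-149804807 on the plus strand with a model spanning 585 bases, and HIST2H4B at chr1:149831643-149832776 on the minus strand with a model spanning 1134 bases. How reads were divided between the copies is not given in the sources used here, so each copy's value is uncertain.

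Sums over near-identical copies may depend less on that division, but they are not free of it. FPKM is scaled by length, and the HIST2H4A and HIST2H4B models span 585 and 1134 bases. HIST2H4A and HIST2H4B together had 890.3, 838 and 867 FPKM under SNHG10 probes and 487, 698 and 423 under LacZ probes (log2 0.72 ± 0.17, limma adjusted p = 0.818, two-sided exact permutation p = 0.1, the smallest that 20 assignments allow). The SNHG10 libraries were all above, by a log2 difference between 0.57 and 0.93 over the settings, and LacZ library 2 was the nearest. This sum was lowest in LacZ libraries 1 and 3, where HIST2H4B was near 0, so it still carries the uneven values of that gene. HIST2H2AA3 had 379.9, 362 and 355 against 439, 406 and 378 FPKM, and its sum with HIST2H2AA4 was 867, 865 and 853 against 1034, 964 and 909.5 FPKM (log2 -0.17 ± 0.074, limma adjusted p = 0.885, exact permutation p = 0.1). Here the SNHG10 libraries were all below. HIST2H3A had 175, 168 and 157 against 158, 153 and 139 FPKM and HIST2H3D had 234, 339 and 303 against 299, 224 and 233 FPKM. The sum of HIST2H3A, HIST2H3C and HIST2H3D was 619.7, 701 and 655 against 634, 553 and 544 FPKM (log2 0.19 ± 0.092, limma adjusted p = 0.885, exact permutation p = 0.2), and it overlapped. This sum includes HIST2H3D, whose promoter window shared only 36.4% of bases with that of HIST2H3C. HIST2H3C alone was separate, and HIST2H3A overlapped by 157 to 158 FPKM at the nearest. A sum of HIST2H3A and HIST2H3C without HIST2H3D was not fitted. All 9 H4 genes gave a log2 difference of 0.18 ± 0.07 as a single feature (limma adjusted p = 0.885, exact permutation p = 0.1), and their libraries overlapped without HIST2H4A and HIST2H4B. No summed feature was called, in fits that called 0% of their 10300 and 10297 features. The sum of HIST2H4A and HIST2H4B and that of all H4 genes had an unadjusted p under 0.05, as did 5.43% and 5.41% of the features in those fits.

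**Figure D4:**
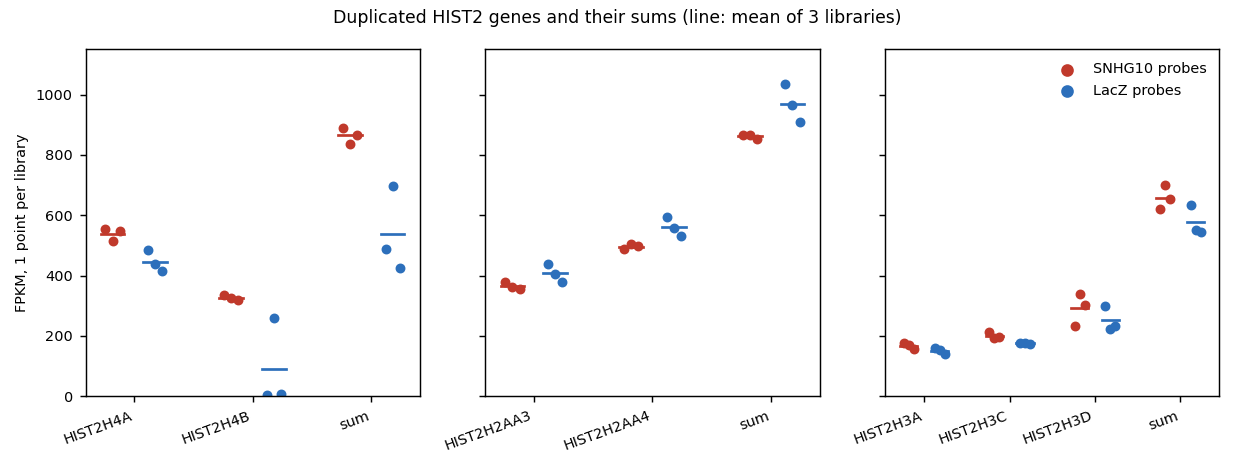
FPKM (y axis, from 0) of the duplicated HIST2 genes and of their sums, 1 point per library, with a line at the mean of 3 libraries, red for SNHG10 and blue for LacZ probes. HIST2H4B is near 0 in 2 LacZ libraries and the H4 sum lies higher in all SNHG10 libraries, the H2A sum lies lower, and the H3 sum, with HIST2H3D counted, overlaps.

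A grouping chosen after the values were seen sets the H3 and H4 genes, partners in the nucleosome's tetramer, beside the H2A and H2B genes, which form its dimers. Of 18 tested H3 and H4 genes, 16 had a difference above 0 (median 0.11), and of 25 H2A and H2B genes 6 did (median -0.088), against 43.3% of all genes. With median-ratio scaling the counts were 16 of 18 and 10 of 25, against 5112 above 0 and 5165 below among genes tested under both scalings. The summed H3 and H4 message over the summed H2A and H2B message was 0.926, 0.947 and 0.863 against 0.826, 0.760 and 0.802, with every SNHG10 library above every LacZ library. Without HIST2H4B the ratio was 0.888, 0.909 and 0.828 against 0.826, 0.733 and 0.801, separate by 0.828 to 0.826 at the nearest. The summed H3 and H4 message itself overlapped without HIST2H4B, at 7845, 7623 and 7528 against 7758, 6979.8 and 6906 FPKM. A ratio within a library does not depend on the scaling between libraries, and it was given no test because the grouping came from these data.

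The HIST2 cluster on chromosome 1 showed separate ratios. Its 6 H3 and H4 genes all had differences above 0 and its 6 H2A and H2B genes all had differences below 0 (1 above with median-ratio scaling). Within HIST2 the ratio was 0.820, 0.924 and 0.883 against 0.546, 0.616 and 0.487. It counts HIST2H4B, whose value is uncertain and was only 3.72 and 7.74 FPKM in LacZ libraries 1 and 3. The HIST2 ratio without HIST2H4B was not computed, so how much of the gap rests on that gene is not given. The denominator does not hold that gene. It was 1851, 1679 and 1747 against 2079, 2048 and 2001 FPKM, with every SNHG10 library below every LacZ library. Of the 9 histone genes with separate libraries, 6 lay in HIST2: HIST2H4A, HIST2H4B and HIST2H3C above, and HIST2H2AA4, HIST2H2AB and HIST2H2BF below. That is 6 of 12 genes (50%), against 11.4% of all genes and 15.1% of those with a mean of at least 100 FPKM. The cluster was singled out after the values were seen. HIST2H4A and HIST2H4B are not separate observations, because the division of reads between them is unknown. In HIST1, the large cluster on chromosome 6, 9 of 11 H3 and H4 genes and 6 of 17 H2A and H2B genes had differences above 0, and the ratio overlapped between the probe sets, at 0.933, 0.927 and 0.839 against 0.886, 0.788 and 0.890. The difference between the clusters was not tested.

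Genes that face each other across a shared promoter had like levels in some pairs and unlike levels in others. HIST2H2BE and HIST2H2AC, an H2B and an H2A gene whose RefSeq windows share 265 bases on opposite strands, had means over the 6 libraries of 197 and 453 FPKM, with log2 differences of -0.049 and -0.36. HIST1H2BC and HIST1H2AC, sharing 255 bases, had means of 579.6 and 18.5 FPKM. The HIST1H2AC rows span 14958 and 14882 bases of the genome, and no shorter model was listed, so its level is that of long models only. HIST1H2BJ and HIST1H2AG, sharing 253, had 486 and 164 FPKM. HIST1H2AM and HIST1H2BO, sharing 261, had 472 and 445 FPKM, and their log2 differences were -0.32 and 0.18. HIST3H2A and HIST3H2BB, sharing 271, had 50.1 and 35.1 FPKM. None of these 10 genes was called, and in all 10 the libraries overlapped.

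The H3.3 genes H3F3A and H3F3B, which encode the same replacement H3 protein, both had differences below 0. H3F3A had 39.9, 60.1 and 36.2 FPKM under SNHG10 probes and 65.3, 62.1 and 117 under LacZ probes (log2 -0.80 ± 0.29, limma adjusted p = 0.885), with every SNHG10 library under every LacZ library the nearest values being 60.1 and 62.1 FPKM. H3F3B had 62.1, 41.7 and 60.1 against 71.8, 59.4 and 67.6 FPKM (log2 -0.29 ± 0.19, limma adjusted p = 0.928) and overlapped. Together they had 102, 102 and 96.2 against 137, 121 and 185 FPKM, a description of a sum formed after the values were seen. HIST H3 message over H3F3 message was 37.1, 37.3 and 39.5 against 27.2, 29.4 and 18.5, again without overlap.

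Among the H2A variants, H2AFZ, an H2A.Z gene, was the highest, with 81.9, 83.4 and 104 FPKM under SNHG10 probes and 103, 93.3 and 134 under LacZ probes (log2 -0.28 ± 0.17, limma adjusted p = 0.928). H2AFV, the other H2A.Z gene, had 62.6, 66.6 and 47.1 against 79.4, 54.5 and 58.6 FPKM. H2AFX, the variant phosphorylated at DNA breaks, had 26.0, 72.8 and 34.5 against 62.5, 21.9 and 50.6 FPKM. Both overlapped and neither kept the sign of its difference when single libraries were left out. H2AFJ had 21.1, 45.2 and 31.0 against 36.0, 42.8 and 45.2 FPKM, and the macroH2A genes H2AFY and H2AFY2 had means of 16.7 and 11.2 FPKM, all with overlap. The linker variants H1F0, which encodes H1.0, and H1FX, which encodes H1.10, had 89.3, 86.6 and 104 against 90.6, 98.8 and 114 FPKM and 77.1, 88.6 and 82.3 against 76.2, 97.4 and 84.9 FPKM, with log2 differences of -0.11 and -0.054. CENPA, the centromeric H3 variant whose symbol lies outside the rule, had 24.7, 14.7 and 2.72 against 26.0, 19.4 and 7.61 FPKM (log2 -0.55 ± 0.73, limma adjusted p = 0.94). None of the variants was called.

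In some genes the transcript rows changed places between libraries. HIST1H2BC has a short model that spans 571 bases of the genome, which read 528, 33.0 and 26.9 against 29.8, 31.4 and 26.2 FPKM, and one that spans 9038 bases, which read 0, 569 and 520.0 against 591, 597 and 526 FPKM. In the first SNHG10 library all of the level sat on the short model. In the other 5 most of it sat on the long one, while the sum stayed between 528 and 628 FPKM. HIST1H2BD showed no such exchange: its model spanning 496 bases read 775, 756 and 806 against 761, 716 and 724 FPKM, and its model spanning 13204 bases read 2.39, 10.3 and 13.5 against 20.7, 19.9 and 34.6 FPKM. The long model was lower in every SNHG10 library, a difference seen after the fact in a row chosen for it and given no test.

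HIST1H3D was read at 538, 572 and 561 against 591, 493 and 499 FPKM on a model spanning 411 bases and at 147, 89.5 and 75.2 against 105, 89.3 and 120.3 FPKM on one spanning 2540 bases. The longer model overlaps HIST1H2AD on the same strand, so reads of the 2 genes cannot be told apart there. HIST1H2AD itself was uneven within the probe sets, at 324, 273 and 529 against 352, 509 and 370.0 FPKM. H3F3A is a sum over 4 rows, and no row carried it alone: the highest row of a library was H3F3A-203 in 2 libraries and H3F3A-204 in 4. In all, 40 HIST genes had 1 row and 8 had 2, and 5 histone genes overlap another listed gene.

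**Figure D5:**
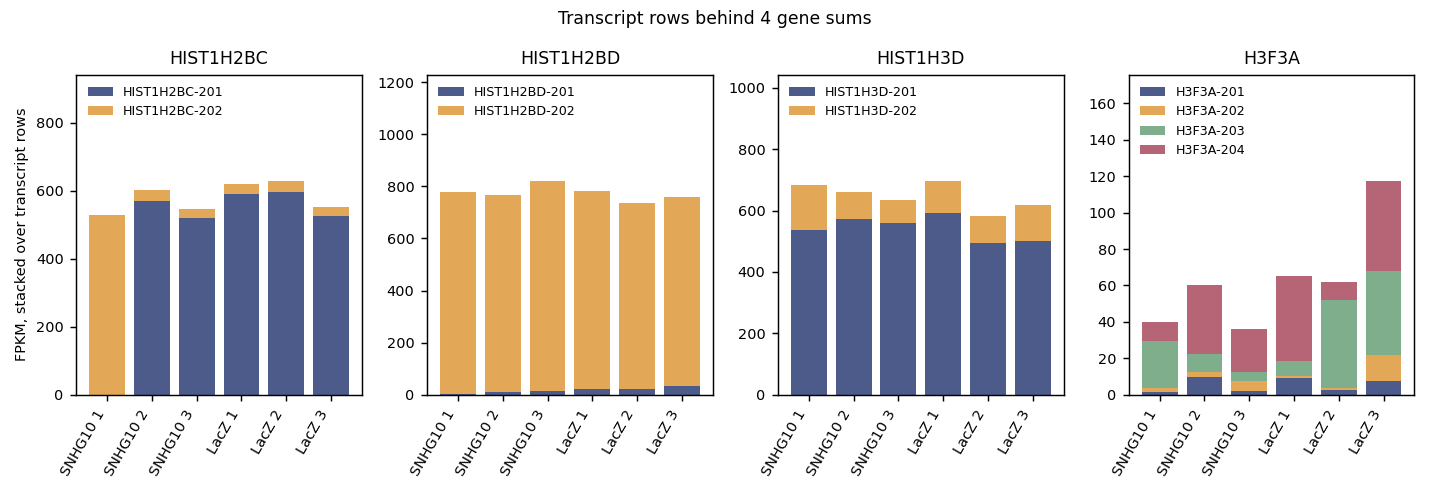
FPKM (y axis, from 0) of the transcript rows of HIST1H2BC, HIST1H2BD, HIST1H3D and H3F3A, stacked to the gene sum, 1 bar per library. In HIST1H2BC the first SNHG10 library sits on the other row than the other 5 libraries while the sum stays alike, and in H3F3A the rows change places between libraries.

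Histone mRNAs varied less within a probe set than most messages. The median SD within a probe set on the log2(FPKM + 1) scale was 0.134 for 46 HIST genes, 0.257 for 10 variant genes and 0.399 for all 10304. At a mean of at least 100 FPKM it was 0.111 for 38 HIST genes against 0.152 for all 364 genes. HIST2H4B, at 2.21, had the highest SD of these 364.

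No gene that serves histone mRNA synthesis or histone deposition passed the test. Of 20 genes for histone mRNA transcription and 3′ processing, 19 were tested, 8 had a difference above 0 and 11 below (median -0.050), and none was called. SLBP, the stem-loop binding protein, had 7.58, 11.5 and 17.2 against 12.6, 17.1 and 11.1 FPKM. The smallest p values of the list were those of CPSF3, the nuclease that cuts the 3′ end, at 18.4, 10.6 and 13.8 against 20.4, 20.3 and 15.3 FPKM (log2 -0.39 ± 0.26, limma adjusted p = 0.928), and SRRT, a partner of the cap-binding complex, at 27.6, 34.6 and 41.4 against 42.9, 37.9 and 40.9 FPKM (log2 -0.24 ± 0.19, limma adjusted p = 0.928). Both overlapped between the probe sets.

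Of 26 histone chaperones and deposition factors, 11 had a difference above 0 and 15 below (median -0.030), and none was called. RBBP4, a histone-binding subunit of the CAF-1 chaperone, had 8.54, 34.7 and 12.2 against 33.4, 42.1 and 26.8 FPKM (log2 -1.07 ± 0.46, limma adjusted p = 0.885), and SUPT16H, a subunit of the FACT chaperone, had 32.2, 32.0 and 22.3 against 19.4, 14.6 and 23.9 FPKM (log2 0.56 ± 0.25, limma adjusted p = 0.885). Of 21 S-phase genes 20 were tested, 5 with a difference above 0 and 15 below (median -0.074), or 9 and 11 with median-ratio scaling. None of them was called. Every SNHG10 library lay below every LacZ library in 3 of the 20 (15%), MCM5, RRM1 and CCNE1, against 7.21% of all genes. RRM1, a subunit of ribonucleotide reductase, was listed at 15.3, 0 and 1.4e-05 FPKM with SNHG10 probes and at 20.6, 18.0 and 23.5 with LacZ probes (limma adjusted p = 0.885). E2F1, a transcription factor of S-phase entry, had 4.33, 3.70 and 6.17 against 12.0, 10.2 and 5.67 FPKM (log2 -0.81 ± 0.35, limma adjusted p = 0.885) and overlapped. The part of these levels in the histone values was not tested.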

How the data were processed

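Groups came from the labels. For each of the 6 libraries the authors deposited FPKM by transcript, as the file headers name it. The submitters' processing notes name Bowtie2 2.1.0 and the hg19 build; what estimated FPKM, and how it divided reads between near-identical copies, are not given in the sources used here. Low values reached 5e-06 FPKM, below what a whole read gives, so the depth is unknown and no interval was computed.

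Transcripts of a symbol were summed. The fit took the 10304 genes that reached 1 FPKM in 3 or more libraries and used limma 3.58.1 under R 4.3.3 (lmFit, eBayes with trend) on log2(FPKM + 1), SNHG10 minus LacZ, p-values adjusted by Benjamini-Hochberg, threshold 0.05. That scale understates the differences of low genes. Copies were also summed and refitted, and each sum was given an exact permutation test, two-sided, with 20 assignments. The test was tried on simulated data with 200 changed genes among 10304. Alternatives were other pseudocounts, filters, scalings, variance models, a replicate block and leaving out each library. Named genes were the 3 highest and the smallest p of each class, genes called in any fit, genes with separate libraries and a log2 difference of at least 0.3, HIST2 duplicates, CENPA and the 2 smallest p of each related list; other genes were named after their values were seen. The members, lists and classes were chosen with earlier results of these data known. RefSeq promoters are of GRCh38.p14 and hg19 coordinates are those of the files. Proteins were not used here.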

Additional observations from a re-analysis of the deposited data

How the results depend on the processing

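The count of genes called was 0 in each direction on all 6 libraries. Leaving out 1 library gave 0 to 1 gene higher (HIST2H4B, 5.67 without LacZ replicate 2) and 0 to 1 lower (RRM1, -4.43, adjusted p = 0.033, without SNHG10 replicate 1), so 0 to 1 histone gene and 0 to 1 S-phase gene. Of 819 alternative values, 784 kept their direction and side of the threshold or stayed within the spread, and 25 changed sign, all of genes that were not called. With median-ratio scaling H1FX moved to 0.0052, H2AFX to 0.030, HIST1H1C to 0.035 and HIST1H2AH to 0.021, and the H2A and H2B genes above 0 went from 6 to 10, in HIST2 from 0 to 1. With quantile normalization H2AFX moved to 0.0024 and HIST1H4B to -0.0022, and the H4 sum was fixed at 0 because it ranked alike in every library.

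With 1 library left out, H1FX ran from -0.14 to 0.037, H2AFV from -0.23 to 0.039, H2AFX from -0.47 to 0.28, HIST1H1C from -0.068 to 0.020, HIST1H2AE from -0.12 to 0.013, HIST1H2AH from -0.13 to 0.026, HIST1H3C from -0.068 to 0.078, HIST1H4B from -0.043 to 0.089, HIST1H4C from -0.039 to 0.14 and CENPA from -1.14 to 0.26. The H3 and H4 genes above 0 numbered 13 to 16, the H2A and H2B genes 6 to 9, and in HIST2 5 to 6 and 0 to 1. The causes were not tested.

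The replicate numbers are shared between the probe sets, and same-numbered libraries deviated together at correlations of 0.015, 0.012 and 0.016. Unlike-numbered libraries had correlations from -0.024 to 0.0085, each below every same-numbered value. Deviations were taken from the mean of each probe set and cancel within it, so the correlations are tied to each other. All of these were small and no label marks a pairing, so the main fit did not pair the libraries. With the replicate block 0 genes were called, 24 histone genes lay above 0 and 32 below, and the HIST2H4A and HIST2H4B sum stood at 0.72 with an adjusted p of 0.886. Depth is unknown, so low genes carry an error that could not be computed.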
